A study of Mus musculus with 39 samples.

Results

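The genes described here are 9 in use as markers of macrophages at the borders of the brain or macrophages that engraft into it from outside. All 9 were followed in microglia sorted from the mouse striatum. They are Mrc1, Cd163, Pf4, Lyve1, Cbr2, Ms4a7, Clec12a, F13a1 and Stab1, found by matching the deposited gene identifiers to these symbols in the GENCODE M21 annotation, 9 of 55487 listed genes. Enough counts for a test were present for 7 of the 9, while Ms4a7 and Clec12a are given by level only. RNA came from male mice aged 8 to 10 weeks, collected 18 hours after the animals received saline (SAL) or lipopolysaccharide (LPS), a bacterial product that activates innate immune cells, given into the peritoneum at 4500 endotoxin units per gram of body weight. Per the labels the meninges were removed before dissociation, and the sort kept live cells with CD11b, low CD45 and P2RY12 on their surface. Each library carries a prenatal term (MIA, maternal immune activation per the series design, or CON), an arm term (PLX or CON) and the injection, in that order. The labels do not define PLX, a prefix shared by small molecules that block CSF1R and deplete microglia, and give no dose, schedule or interval for it.

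The groups were MIA_PLX_LPS with 6 libraries, MIA_CON_LPS with 6, MIA_PLX_SAL with 3, MIA_CON_SAL with 4, CON_PLX_LPS with 6, CON_CON_LPS with 4, CON_PLX_SAL with 4 and CON_CON_SAL with 4. Another 2 libraries, CON_CON_LPS replicate 3 and MIA_PLX_SAL replicate 1, have titles that say they are to be excluded, with no reason, and were left out. Whether replicates came from separate animals is not given, so the p-values describe the spread between these libraries, and that spread may be technical. The strain is not given in the labels, and neither is the kind of maternal immune activation.

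Border-associated macrophages live in the meninges, the choroid plexus and the spaces around brain vessels, and differ from the microglia of the parenchyma by scavenger and lectin receptors on their surface. When microglia are depleted, cells from the blood can settle in the emptied brain and take on much of the microglial programme, while keeping some genes that microglia do not normally use, among them Ms4a7 and Clec12a. In this set Mrc1 (the mannose receptor CD206), Cd163 (the receptor for haemoglobin bound to haptoglobin), Lyve1 (a hyaluronan receptor) and Stab1 (stabilin-1) are endocytic or scavenger receptors. Pf4 encodes a CXC chemokine that platelets also hold in quantity, Cbr2 a carbonyl reductase, F13a1 the A subunit of clotting factor XIII, Ms4a7 a membrane protein that spans the membrane several times, and Clec12a an inhibitory C-type lectin receptor of myeloid cells.

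The promoter windows of Mrc1, Cd163, F13a1 and Stab1 are shown because these genes carry the comparisons below: Mrc1 had the smallest p for PLX over the 4 settings, F13a1 and Stab1 were the genes called after LPS, and Cd163 rose and fell with F13a1 between libraries. Each runs 5′ to 3′ on the strand of the gene, from 250 bases before the start of a RefSeq transcript to 50 bases after it (RefSeq, GRCm38.p6). Capitals mark GAGGAA, the core bound by the myeloid factor PU.1, searched on both strands and so also seen as TTCCTC.
Mrc1, chr2:14229164-14229463, plus strand: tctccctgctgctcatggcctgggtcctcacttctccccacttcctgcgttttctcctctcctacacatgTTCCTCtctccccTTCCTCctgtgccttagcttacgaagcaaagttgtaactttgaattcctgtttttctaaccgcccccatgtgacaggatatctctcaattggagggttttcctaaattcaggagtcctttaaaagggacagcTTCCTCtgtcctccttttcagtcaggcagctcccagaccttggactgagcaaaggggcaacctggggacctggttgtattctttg
Cd163, chr6:124304401-124304700, plus strand: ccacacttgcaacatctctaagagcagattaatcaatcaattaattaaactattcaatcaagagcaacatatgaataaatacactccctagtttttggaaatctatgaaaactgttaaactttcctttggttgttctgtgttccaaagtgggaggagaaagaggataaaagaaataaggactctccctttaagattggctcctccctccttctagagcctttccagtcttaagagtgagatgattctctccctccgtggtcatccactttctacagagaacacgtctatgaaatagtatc
F13a1, chr13:37049164-37049463, minus strand: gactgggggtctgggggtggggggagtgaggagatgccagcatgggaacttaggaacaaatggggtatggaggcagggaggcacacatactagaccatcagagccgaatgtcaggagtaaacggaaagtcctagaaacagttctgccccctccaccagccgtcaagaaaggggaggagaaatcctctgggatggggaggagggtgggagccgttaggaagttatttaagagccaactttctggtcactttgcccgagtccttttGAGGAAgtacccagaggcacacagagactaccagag
Stab1, chr14:31168592-31168891, minus strand: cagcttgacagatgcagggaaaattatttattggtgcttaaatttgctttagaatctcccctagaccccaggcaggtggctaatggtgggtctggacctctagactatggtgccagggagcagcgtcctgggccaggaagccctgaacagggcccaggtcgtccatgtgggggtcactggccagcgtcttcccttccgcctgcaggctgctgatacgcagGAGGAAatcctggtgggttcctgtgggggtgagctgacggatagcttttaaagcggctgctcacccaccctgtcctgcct
RefSeq windows were matched for 8 of the 9 genes, 10 windows in all because Ms4a7 and F13a1 have more than a single start. The PU.1 core was found in 8 of these 10 windows, belonging to 7 of 8 genes, against 28.3% of all 32851 windows in the table. The Mrc1 window holds it 3 times and the Cd163 window 0 times. F13a1 has another window that is not shown, chr13:37050195-37050494, which spans the start of the gene in GENCODE M21 and holds the core 2 times. The MAF half-site TGCTGAC, with GTCAGCA on the other strand, occurred in 1 of the 10 windows, that of Cbr2, against 4.67% of all windows. The 2 motifs do not overlap in any of these windows, and a match of letters is a description of the window only.

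In the GENCODE M21 annotation (GRCm38) the genes lie on 8 chromosomes. Mrc1 is at chr2:14229392-14332057 and its span contains the microRNA gene Mir511, with 0 shared exonic bases. Stab1, at chr14:31139013-31168641, shares 112 exonic bases with the oppositely transcribed Nt5dc2, and F13a1, at chr13:36867178-37050244, shares 74 with the antisense gene Gm30489. Cd163 is at chr6:124304656-124330527, Clec12a at chr6:129342691-129365303, Pf4 at chr5:90772435-90773383, Lyve1 at chr7:110850607-110863239, Cbr2 at chr11:120729489-120732114 and Ms4a7 at chr19:11321039-11336146. The libraries keep no strand, so reads in those stretches cannot be told apart.

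Library totals ran from 1510020 to 5746239 counts (median 3095162), so that 3 counts, the most that a count of 0 allows, correspond to 0.522 to 1.99 CPM. P2ry12, the gate gene, stood at 141 to 419 CPM in LPS libraries, apart from MIA_CON_LPS replicate 6 at 1822 CPM, and at 2367 to 3071 CPM in saline libraries. That library was also the nearest to MIA_PLX_SAL replicate 1, whose title says exclude: among 741 pairs of libraries they had the smallest chi-square of counts over 11605 genes (1.53 per degree of freedom, 2.42 for the pair after them). The acute-phase genes Saa3 and Lcn2 were at 56.0 and 24.1 CPM in MIA_CON_LPS replicate 6, and at 60.4 and 23.3 CPM in MIA_PLX_SAL replicate 1. In MIA_CON_LPS replicate 5 they were at 53.0 and 30.0 CPM. Their highest values in the saline libraries used were 8.71 and 12.9 CPM. Whether either label gives the true injection is in doubt and was not tested. MIA_CON_LPS replicate 6 was kept in its group as labelled, so every value of that group includes it, and values without it are given where they change a call. Of 11 microglia identity genes all 11 passed the filter. Their summed level ran from 19374 to 21738 CPM in CON_CON_SAL libraries, where the 9 genes described here summed to 313 to 459 CPM.

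Stab1 made up most of that sum, was present in every library and varied less with the other genes (r 0.212 to 0.555, given below). Whether the sorted microglia themselves carried Stab1 was not tested. Neither Stab1 nor the sum is therefore read as a measure of border macrophages. On the scale of CPM per kilobase of exon (CPM are counts scaled to a common library total, here divided by exonic length), the level of Stab1 in CON_CON_SAL was 27.2 to 37.9 per library and that of Mrc1 4.42 to 8.64. Pf4 followed at 0.395 to 1.45, Cbr2 at 0 to 1.35 and F13a1 at 0.339 to 0.690. Lyve1 reached 1.10, Cd163 0.524, Ms4a7 0.447 and Clec12a 0.0630 in their highest CON_CON_SAL libraries. Stab1 was above Mrc1 in each of these 4 libraries, and Mrc1 above the other 7 genes, without overlap of their ranges. Among those 7, each gene overlapped its neighbour in the order, and all but Pf4 and F13a1 had at least 1 library at 0.

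Across the 37 libraries Mrc1 (4.90 to 127 CPM), F13a1 (1.63 to 58.3 CPM) and Stab1 (112 to 941 CPM) were seen in every library. Cd163, Lyve1, Cbr2 and Ms4a7 were each at 0 in 6 libraries, Pf4 in 7 and Clec12a in 14. Clec12a had 52 counts in all, Ms4a7 154, Pf4 206, Cbr2 220, Lyve1 427 and Cd163 429. These 6 genes averaged under 10 CPM in all 8 groups and are called the low genes below. In RNA from a sorted population, fewer cells of a type and less RNA per cell cannot be told apart.

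**Figure D1:**
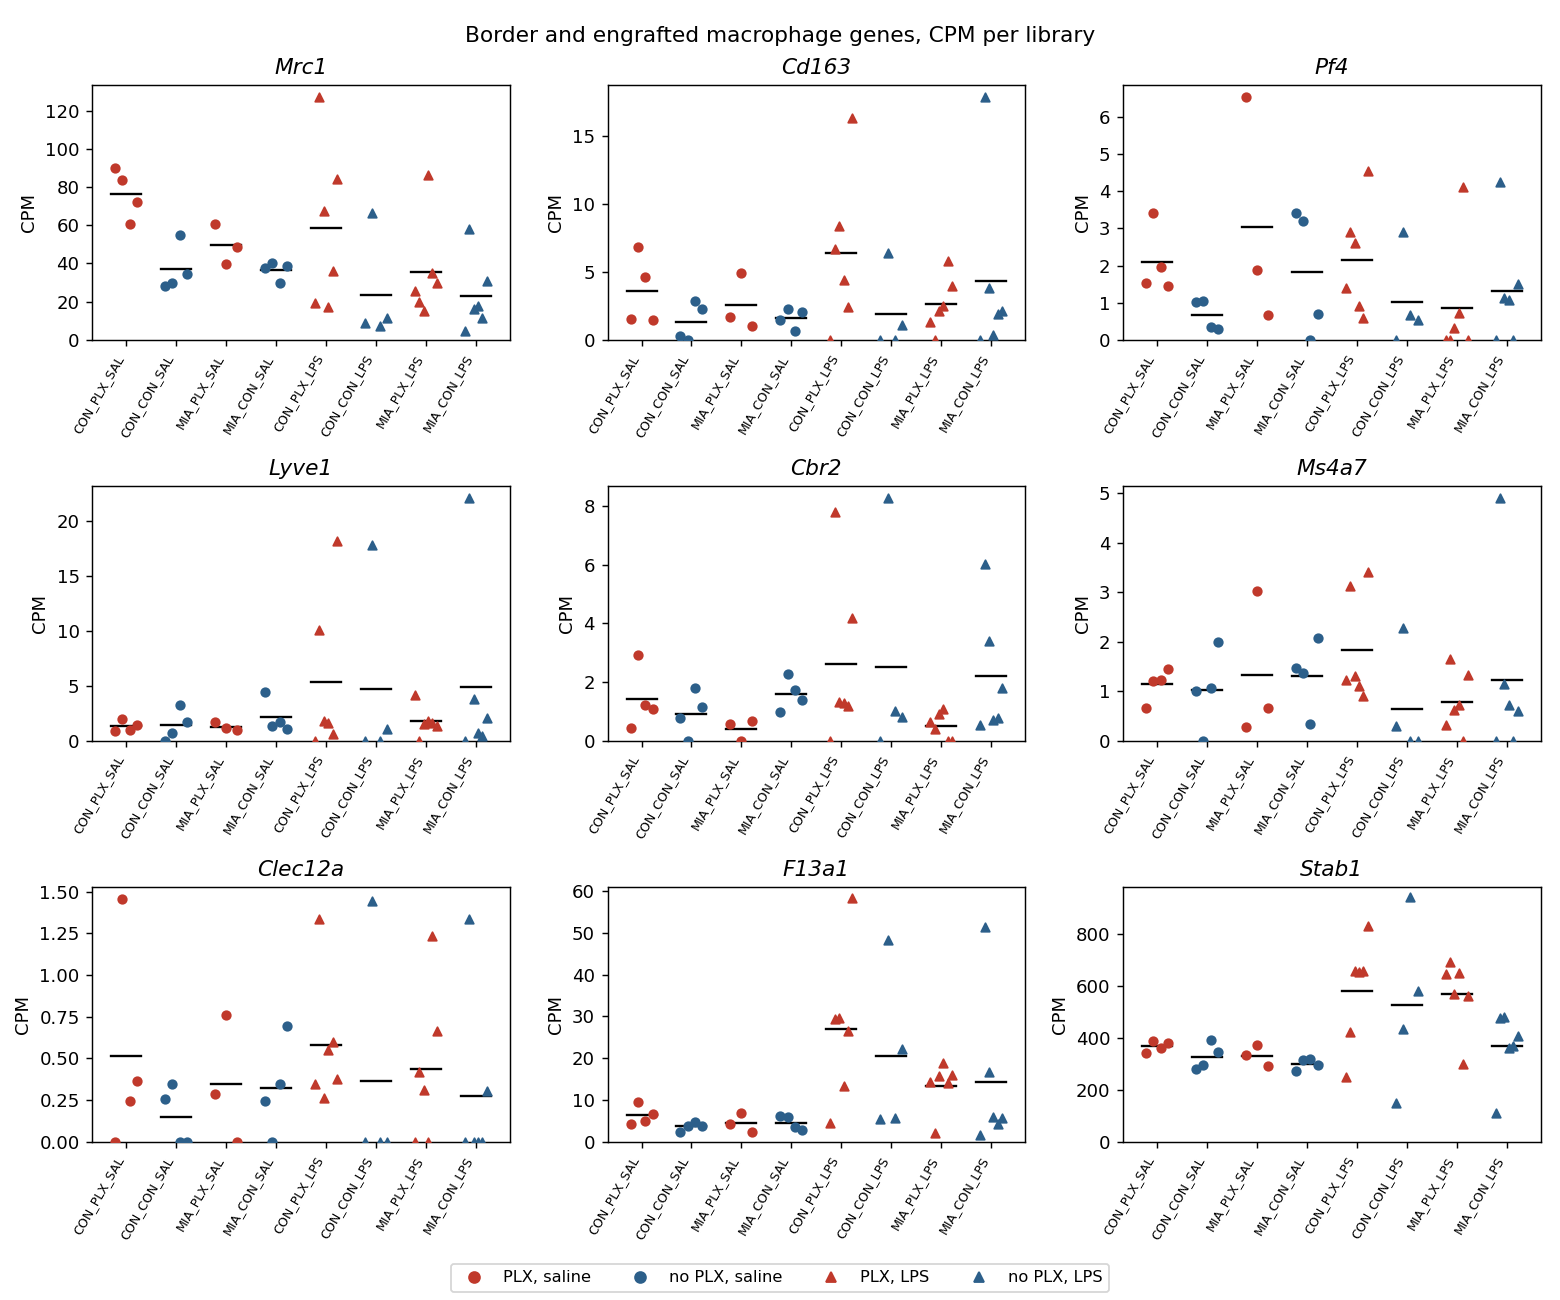
Level of each gene in CPM (vertical axes, linear, from 0) in the 37 libraries, by group on the horizontal axes, with a point per library and a black line at the group mean. Red marks PLX and blue no PLX, circles saline and triangles LPS. Mrc1 in CON_PLX_SAL (60.6 to 89.9 CPM) sits above CON_CON_SAL (28.2 to 55.0 CPM), and single LPS libraries stand far above the rest of their groups for the low genes.

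The comparison of PLX with no PLX was made within each prenatal term and injection. Mrc1 and Stab1 had higher means with PLX in all 4 settings, and the differences of Mrc1 were the wider ones in 3 of them. Clec12a, near the floor and given by level only, also had higher means in all 4 settings, by 1.08-fold to 3.43-fold, but on very few counts. The 3.43-fold, in prenatal controls at saline, came from 0, 6, 1 and 1 counts with PLX, against 1, 1, 0 and 0 without. The direction of Clec12a is therefore not read further. The mean of Mrc1 was higher by 2.07-fold in prenatal controls at saline, 2.50-fold in prenatal controls after LPS, 1.36-fold after MIA at saline and 1.52-fold after MIA and LPS. No gene of the 7 tested was called in any of the 4 settings or in their average. The share of all 13420 tested genes that were called was 0% in prenatal controls at saline, 0.00745% in prenatal controls after LPS, 0% after MIA at saline, 0% after MIA and LPS, and 0.0522% for the average, by edgeR with Benjamini-Hochberg adjustment. At an unadjusted p under 0.05 by edgeR, 0, 1, 0 and 1 of the 7 tested genes passed in those settings and 1 in the average. The share of all genes at that threshold is not given here, so these counts are a description only. DESeq2 and voom called 0 of the 7 genes in each.

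At saline in prenatal controls, Mrc1 was at 89.9, 83.9, 60.6 and 72.0 CPM in CON_PLX_SAL, against 28.2, 30.0, 55.0 and 34.7 CPM in CON_CON_SAL. All 4 PLX libraries were above all 4 without PLX. Of the 7 genes, 2 separated in this direction, against 1.48% of all tested genes, and 0 in the other direction, against 1.57%. For Mrc1 the log2 fold change was 1.06 ± 0.66 (SE) with an adjusted p of 1 by edgeR, and in a fit of only these 2 groups it was 1.07 with an adjusted p of 0.0598.

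After LPS in prenatal controls, Mrc1 ranged from 17.2 through a median of 51.5 to 127 CPM in CON_PLX_LPS, against 8.92, 66.2, 7.10 and 11.5 CPM in CON_CON_LPS. The groups overlapped through CON_CON_LPS replicate 2, which stood at 66.2 CPM. None of the 7 genes separated here (0.425% of all genes did upward and 0.529% downward). Mrc1 had a log2 fold change of 1.29 ± 0.63 (SE) here, with an adjusted p of 0.703 by edgeR. It was 2.80 with an adjusted p of 0.284 by edgeR without CON_CON_LPS replicate 2, and it ran between 0.84 and 2.80 when single libraries were left out.

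After MIA the differences of Mrc1 were smaller and within the spread. At saline Mrc1 was at 60.5, 39.8 and 48.7 CPM in MIA_PLX_SAL, against 37.6, 40.2, 29.9 and 38.6 CPM in MIA_CON_SAL (log2 fold change 0.45 ± 0.72, SE). After LPS it ranged from 15.1 through 27.8 to 86.5 CPM in MIA_PLX_LPS, against 4.90 through 16.8 to 58.2 CPM in MIA_CON_LPS (0.46 ± 0.56, and 0.032 to 1.08 when single libraries were left out). Both pairs overlapped, and the difference of the PLX effect between MIA and prenatal controls was -0.72 ± 0.64 (SE) on the log2 scale, with an adjusted p of 0.9999 by edgeR. From high to low, the group means of Mrc1 were 76.6 CPM in CON_PLX_SAL, 58.5 in CON_PLX_LPS, 49.6 in MIA_PLX_SAL, 37.0 in CON_CON_SAL, 36.6 in MIA_CON_SAL, 35.4 in MIA_PLX_LPS, 23.4 in CON_CON_LPS and 23.2 in MIA_CON_LPS. Each of these groups overlapped its neighbour in that order.

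Averaged over the 4 settings, the log2 fold change of Mrc1 with PLX was 0.82 ± 0.32 (SE), with an adjusted p of 0.999 by edgeR. Without the 4 LPS libraries described below it was 1.17 in a fit chosen after seeing the data. Those libraries were picked for high levels of genes that vary together with Mrc1, so this value is a description and no p is given for it.

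Cd163 and Pf4, a scavenger receptor and a chemokine, had higher means with PLX in prenatal controls. Cd163 was at 1.54, 6.81, 4.64 and 1.45 CPM in CON_PLX_SAL, against 0.254, 0, 2.86 and 2.28 CPM in CON_CON_SAL, which overlapped. Pf4 was at 1.54, 3.40, 1.95 and 1.45 CPM in CON_PLX_SAL, against 1.01, 1.05, 0.357 and 0.284 CPM in CON_CON_SAL, without overlap. These are few counts, and the log2 fold changes were 1.46 ± 1.19 for Cd163 and 1.56 ± 1.08 for Pf4 (SE), with an adjusted p of 1 for each by edgeR. The highest library for both was CON_PLX_SAL replicate 2, which was highest in its group for 7 of the 9 genes. Neutrophil markers summed to 74.1 CPM in it, against 0, 0 and 3.62 CPM in the other 3 libraries of the group, and monocyte markers to 26.5 CPM, against 11.7, 17.6 and 14.5 CPM. Without that library the log2 fold changes were 0.97 for Cd163 and 1.23 for Pf4, and the part of the neutrophil and monocyte markers in the levels was not tested. After LPS in prenatal controls, Cd163 ranged from 0 through 5.54 to 16.3 CPM in CON_PLX_LPS, against 0, 6.41, 0 and 1.07 CPM in CON_CON_LPS. Pf4 ranged there from 0.597 through 2.00 to 4.54 CPM in CON_PLX_LPS, against 0, 2.90, 0.676 and 0.535 CPM in CON_CON_LPS. The ranges overlapped for both genes, with log2 fold changes of 1.53 ± 1.02 for Cd163 and 0.94 ± 0.93 for Pf4 (SE).

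After MIA the order of the 2 genes' means was not the same at saline and after LPS. At saline Cd163 was at 1.70, 4.92 and 1.01 CPM in MIA_PLX_SAL, against 1.46, 2.28, 0.688 and 2.08 CPM in MIA_CON_SAL, and Pf4 was at 6.53, 1.89 and 0.671 CPM in MIA_PLX_SAL, against 3.41, 3.20, 0 and 0.695 CPM in MIA_CON_SAL. After LPS Cd163 ranged from 0 through 2.34 to 5.76 CPM in MIA_PLX_LPS, against 0 through 2.01 to 17.8 CPM in MIA_CON_LPS, and Pf4 from 0 through 0.154 to 4.12 CPM in MIA_PLX_LPS, against 0 through 1.11 to 4.24 CPM in MIA_CON_LPS. All of these overlapped. After MIA and LPS the fitted log2 fold changes were -0.96 ± 0.93 for Cd163 and -0.80 ± 0.93 for Pf4, and both were above 0 without MIA_CON_LPS replicate 2 (0.62 and 0.15).

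Cbr2, the carbonyl reductase, had lower means with PLX after MIA. It was at 0.568, 0 and 0.671 CPM in MIA_PLX_SAL, against 0.976, 2.28, 1.72 and 1.39 CPM in MIA_CON_SAL. These groups did not overlap, at levels near the 3-count floor. It was 1 of 7 genes lower without overlap, against 3.22% of all tested genes, while 0 of 7 were higher without overlap, against 3.85%. Cbr2 failed the filter on counts without the 4 LPS libraries described below, none of which is in a MIA_PLX group. Its place among the tested genes thus rests on libraries outside the MIA_PLX groups, and its values here are a description only. After LPS, Cbr2 ranged from 0 through 0.531 to 1.08 CPM in MIA_PLX_LPS, against 0.544 through 1.29 to 6.02 CPM in MIA_CON_LPS. After LPS none of the 7 genes separated (0.209% of all genes upward and 0.0671% downward). For Cbr2 the log2 fold changes were -1.75 ± 1.33 at saline and -2.12 ± 0.94 after LPS (SE), with adjusted p of 1 and 0.510 by edgeR. The difference of the PLX effect between MIA and prenatal controls was -2.24 ± 1.06 (SE) on the log2 scale, with an adjusted p of 0.9999 by edgeR, and 0% of all genes were called for that difference.

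In prenatal controls Cbr2 overlapped between arms. It was at 0.441, 2.92, 1.22 and 1.09 CPM in CON_PLX_SAL, against 0.761, 0, 1.79 and 1.14 CPM in CON_CON_SAL. After LPS it ranged from 0 through 1.29 to 7.80 CPM in CON_PLX_LPS, against 0, 8.27, 1.01 and 0.803 CPM in CON_CON_LPS.

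Lyve1, F13a1 and Stab1 differed little with PLX relative to their spread. At saline Lyve1 averaged 1.31 ± 0.49 CPM in CON_PLX_SAL and 1.41 ± 1.40 CPM in CON_CON_SAL (SD, n = 4 each). F13a1 averaged 6.27 ± 2.35 CPM in CON_PLX_SAL and 3.61 ± 0.98 CPM in CON_CON_SAL (SD, n = 4 each), with overlap. Stab1, the stabilin-1 gene, averaged 368 ± 20.9 CPM in CON_PLX_SAL and 327 ± 50.3 CPM in CON_CON_SAL (SD, n = 4 each).

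Lyve1 and F13a1 overlapped between arms in every other setting as well. Lyve1 ranged from 0 through 1.74 to 18.2 CPM in CON_PLX_LPS, against 0, 17.8, 0 and 1.07 CPM in CON_CON_LPS. It was at 1.70, 1.14 and 1.01 CPM in MIA_PLX_SAL, against 4.39, 1.37, 1.72 and 1.04 CPM in MIA_CON_SAL. After MIA and LPS, Lyve1 ranged from 0 through 1.59 to 4.20 CPM in MIA_PLX_LPS, against 0 through 1.41 to 22.1 CPM in MIA_CON_LPS. The top values of both groups without PLX belong to their replicate 2, and without MIA_CON_LPS replicate 2 the log2 fold change of Lyve1 was 0.32, beside -1.64 ± 1.08 (SE) with it. In prenatal controls after LPS, without CON_CON_LPS replicate 2, it was 3.67 for Lyve1, beside -0.037 ± 1.05 (SE) with it, and 2.24 for Cbr2, beside -0.013 ± 0.79 with it.

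The widest PLX difference of Stab1 was after MIA and LPS, where it ranged from 297 through 608 to 690 CPM in MIA_PLX_LPS, against 112 through 388 to 480 CPM in MIA_CON_LPS. The log2 fold change there was 0.55 ± 0.28 (SE), with an adjusted p of 0.575 by edgeR. Over the 4 settings the log2 fold changes of Stab1 ran between 0.15 and 0.55.

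Ms4a7 and Clec12a, which mark engrafted cells, had group means near the floor throughout. Ms4a7 averaged 1.84 ± 1.12 CPM in CON_PLX_LPS (SD, n = 6) and 0.641 ± 1.10 CPM in CON_CON_LPS (SD, n = 4). At saline it averaged 1.14 ± 0.33 CPM in CON_PLX_SAL and 1.02 ± 0.81 CPM in CON_CON_SAL (SD, n = 4 each). After MIA, Ms4a7 averaged 0.774 ± 0.62 CPM in MIA_PLX_LPS and 1.23 ± 1.85 CPM in MIA_CON_LPS (SD, n = 6 each). At saline after MIA it averaged 1.33 ± 1.49 CPM in MIA_PLX_SAL (SD, n = 3) and 1.32 ± 0.72 CPM in MIA_CON_SAL (SD, n = 4).

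Clec12a averaged 0.578 ± 0.39 CPM in CON_PLX_LPS (SD, n = 6) and 0.362 ± 0.72 CPM in CON_CON_LPS (SD, n = 4). At saline it averaged 0.516 ± 0.65 CPM in CON_PLX_SAL and 0.150 ± 0.18 CPM in CON_CON_SAL (SD, n = 4 each). After MIA, Clec12a averaged 0.437 ± 0.47 CPM in MIA_PLX_LPS and 0.273 ± 0.54 CPM in MIA_CON_LPS (SD, n = 6 each). At saline after MIA it averaged 0.347 ± 0.38 CPM in MIA_PLX_SAL (SD, n = 3) and 0.321 ± 0.29 CPM in MIA_CON_SAL (SD, n = 4). Its highest value in any library was 1.46 CPM, in CON_PLX_SAL replicate 2, so a difference was not detectable at this depth.

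**Figure D2:**
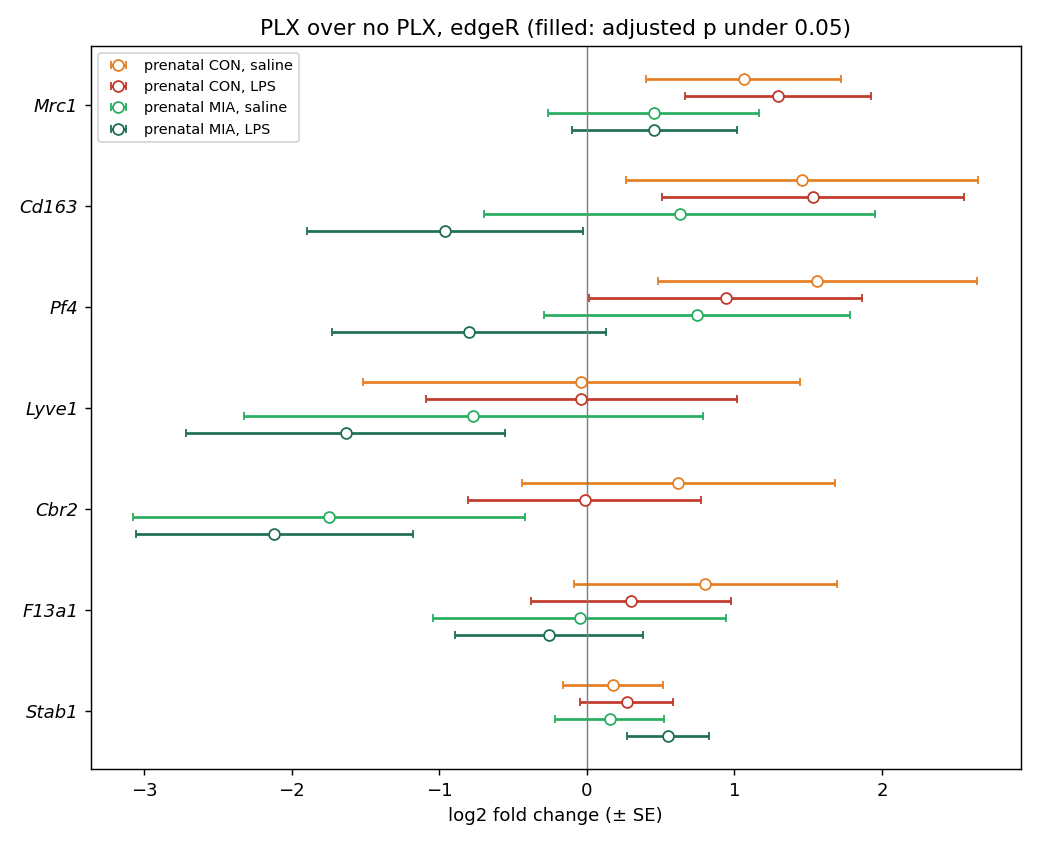
Log2 fold change of PLX over no PLX (horizontal axis) for the 7 genes with enough counts, with bars of 1 SE, in the 4 combinations of prenatal term and injection shown by colour. All points are open because no adjusted p by edgeR was under 0.05. Mrc1 lies right of 0 in all 4 (0.45 to 1.29), and Cbr2 after MIA lies left of 0 (-1.75 and -2.12).

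As a sum, the low genes were concentrated in a few libraries, all of them LPS libraries and spread over 3 groups. Their summed level was 56.4 CPM in MIA_CON_LPS replicate 2, 47.0 CPM in CON_PLX_LPS replicate 6, 39.1 CPM in CON_CON_LPS replicate 2 and 31.9 CPM in CON_PLX_LPS replicate 2. In each of the other 33 libraries it was at most 17.7 CPM. Within CON_CON_LPS, replicate 2 was the highest library for 8 of the 9 genes, and within MIA_CON_LPS replicate 2 was so for 8 of 9. In CON_PLX_LPS replicate 6 was highest for 6 genes and replicate 2 for the other 3.

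Lyve1 showed this most. It was at 22.1 CPM in MIA_CON_LPS replicate 2, against at most 3.79 CPM in the other 5 libraries of that group, and at 17.8 CPM in CON_CON_LPS replicate 2, against at most 1.07 CPM in the other 3. The 3 highest libraries held 50.9% of the summed CPM of Lyve1 over 37 libraries. The same share was 37.4% for Cbr2, 35.0% for Cd163, 32.9% for F13a1, 19.7% for Mrc1 and 15.2% for Stab1. Among the low genes it was smaller for Clec12a (30.0%), Pf4 (26.6%) and Ms4a7 (26.3%). Pf4 was highest in a saline library, MIA_PLX_SAL replicate 2 (6.53 CPM), and so was Clec12a, in CON_PLX_SAL replicate 2 (1.46 CPM).

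**Figure D3:**
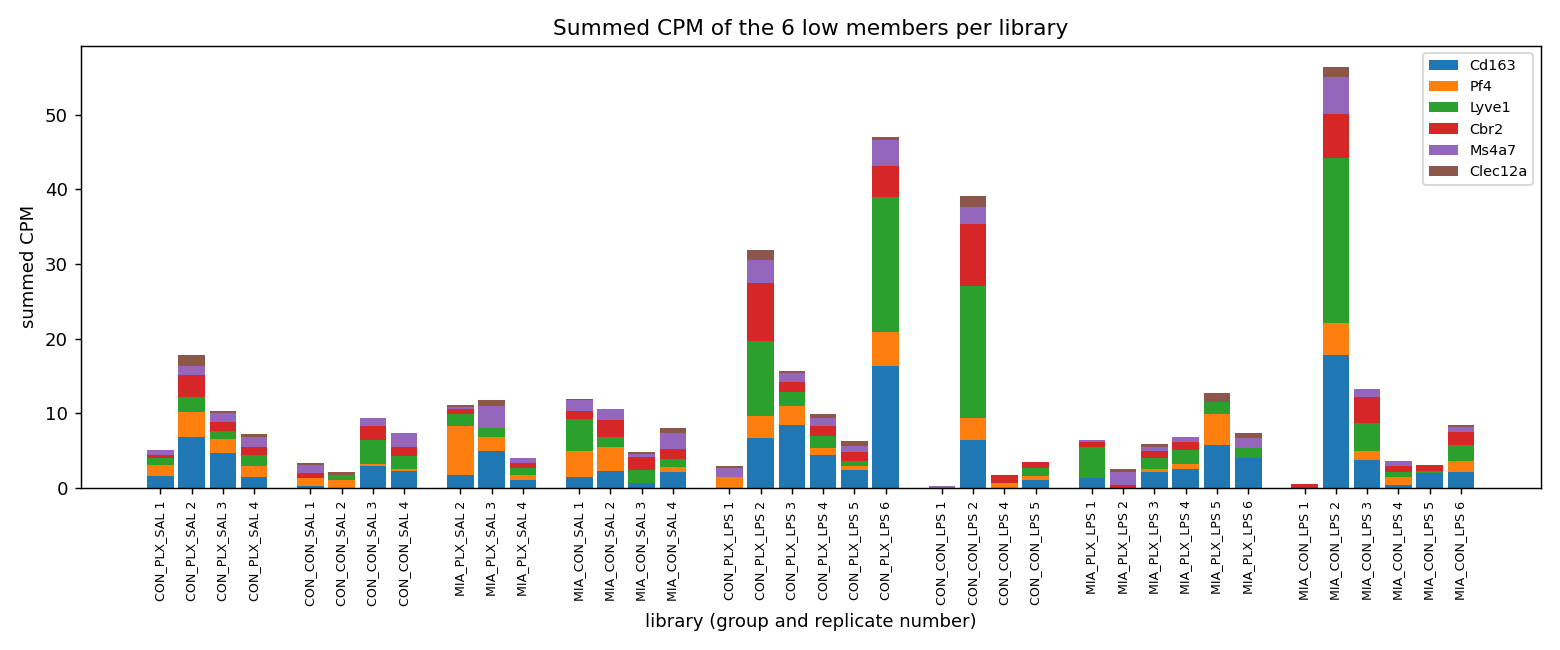
Summed CPM of the 6 low genes (vertical axis, stacked bars from 0, a colour per gene) in each of the 37 libraries, by group and replicate number on the horizontal axis. The 4 tallest bars, 31.9 to 56.4 CPM, are all LPS libraries, and Lyve1 is the largest block in each of them.

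The other cell type lists were measured in the same libraries. Further border macrophage markers summed to 405 to 748 CPM in those 4 libraries. Over all LPS libraries the median of this sum was 561 CPM and its highest value 938 CPM. Further markers of engrafted macrophages summed to 634 to 992 CPM in the 4 libraries. Their median over all LPS libraries was 659 CPM and their highest value 999 CPM. Monocyte markers summed to 117 to 284 CPM in those 4 libraries, within 27.2 to 573 CPM over all 22 LPS libraries, and neutrophil markers to 19.7 to 69.3 CPM, within 3.32 to 124 CPM. Platelet markers summed to 4.76 to 7.80 CPM in the 4 libraries, within 4.52 to 17.8 CPM over the LPS libraries, and Ppbp, which platelets hold with Pf4, was at 0 in every group. Endothelial and mural markers summed to 15.1 to 25.4 CPM, within 8.61 to 38.2 CPM. Lymphocyte markers reached at most 1.45 CPM in any LPS library, and in the 4 libraries 0.414 CPM. Astrocyte markers summed to 81.2 to 175 CPM in the 4 libraries, within 47.7 to 196 CPM, neuronal markers to 6.69 to 18.8 CPM, within 3.38 to 42.6 CPM, and oligodendrocyte markers to 37.2 to 59.8 CPM, within 21.97 to 77.4 CPM.

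The microglia identity list summed to 9363 to 10565 CPM in the 4 libraries, within 5506 to 15917 CPM over all LPS libraries. Tmem119, a microglial membrane protein gene, was at 461 CPM in CON_CON_LPS replicate 2, 484 and 421 CPM in CON_PLX_LPS replicates 2 and 6, and 413 CPM in MIA_CON_LPS replicate 2, above every other library of its own group except MIA_CON_LPS replicate 6 at 636 CPM. The part of these other genes in the levels of the low genes was not tested.

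LPS was compared with saline in each arm, to give the response of these genes to acute inflammation. F13a1, the clotting factor subunit, was called higher after LPS in prenatal controls, without PLX and with it. Stab1 was called higher in CON with PLX, and over both prenatal terms its LPS response with PLX minus that without PLX was 0.24 ± 0.33 (SE) on the log2 scale (adjusted p 0.9999 by edgeR). The number of genes called was 2 in CON with PLX, 1 in CON without PLX, 0 in MIA with PLX and 0 in MIA without PLX, while 31.5%, 23.6%, 22.3% and 25.4% of all tested genes were called in those contrasts by edgeR with Benjamini-Hochberg adjustment. In the MIA arms 1 of the 7 genes with PLX and 1 without PLX had an unadjusted p under 0.05 by edgeR. DESeq2 called 1 in each, while voom called 1 with PLX, where it called 4596 of all genes, and 0 without. The shares of all genes at that threshold or by DESeq2 are not given here, so these counts are a description only.

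The share of counts from mitochondrial ribosomal RNA, which can differ with RNA quality, was above the saline range in most LPS libraries. It was 14.4 to 18.8% in CON_PLX_LPS, against 10.2 to 11.9% in CON_PLX_SAL, and 13.4 to 19.3% in MIA_CON_LPS, against 12.2 to 13.1% in MIA_CON_SAL, without overlap in either arm. It was 9.16 to 19.2% in MIA_PLX_LPS, against 11.5 to 13.7% in MIA_PLX_SAL, and 6.14 to 16.6% in CON_CON_LPS, against 9.70 to 12.4% in CON_CON_SAL, with overlap. The library at 6.14%, CON_CON_LPS replicate 4, had the highest Stab1 level of all 37 libraries, 941 CPM. The part of this share in the LPS results was not tested.

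F13a1 was at 5.47, 48.4, 5.75 and 22.2 CPM in CON_CON_LPS, against 2.28, 3.83, 4.65 and 3.70 CPM in CON_CON_SAL. All 4 LPS libraries were above the saline libraries, replicates 1 and 4 only just. F13a1 was the 1 gene of 7 that separated upward in this arm, against 8.62% of all tested genes, and 0 separated downward, against 13.7%. F13a1 had a log2 fold change of 2.80 ± 0.86 (SE), with an adjusted p of 0.0165 by edgeR. It was 1.84 with an adjusted p of 0.123 without CON_CON_LPS replicate 2, and 2.63 with 0.0517 without CON_CON_SAL replicate 1.

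With PLX, F13a1 ranged from 4.52 through a median of 28.0 to 58.3 CPM in CON_PLX_LPS, against 4.19, 9.48, 4.88 and 6.51 CPM in CON_PLX_SAL. The lowest LPS library lay among the saline libraries and the other 5 lay above them. Its log2 fold change was 2.30 ± 0.76 (SE), with an adjusted p of 0.0208 by edgeR, and it was not called without CON_PLX_SAL replicate 1 (2.13, adjusted p 0.0638) or replicate 3 (2.19, 0.0583) or without the filter on low counts (2.30, 0.0586).

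After MIA, F13a1 ranged from 2.07 through 14.9 to 18.8 CPM in MIA_PLX_LPS, against 4.26, 6.82 and 2.35 CPM in MIA_PLX_SAL. It ranged from 1.63 through 5.75 to 51.5 CPM in MIA_CON_LPS, against 6.10, 5.93, 3.44 and 2.78 CPM in MIA_CON_SAL. With PLX 5 of the 6 LPS libraries were above all saline libraries, while without PLX only replicates 2 and 3 were. The log2 fold changes were 1.78 ± 0.91 with PLX and 1.99 ± 0.80 without PLX (SE), with adjusted p of 0.167 and 0.0656 by edgeR. Without PLX the log2 fold change fell to 0.76 when MIA_CON_LPS replicate 2 was left out, and it was called without replicate 6 (2.18, adjusted p 0.0403 by edgeR) and without replicate 1 (2.20, 0.0445).

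Stab1 ranged from 248 through a median of 654 to 831 CPM in CON_PLX_LPS, against 343, 389, 360 and 381 CPM in CON_PLX_SAL. All but 1 of the 6 LPS libraries were above every saline library. The log2 fold change was 0.87 ± 0.32 (SE), with an adjusted p of 0.0348 by edgeR. That call was lost when any of CON_PLX_LPS replicates 3 to 6 or any CON_PLX_SAL library was left out (0.80 to 0.89, adjusted p 0.0513 to 0.0805), and with library totals alone the log2 fold change was 0.65 with an adjusted p of 0.139.

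In the other arms Stab1 had means of 569 ± 142 CPM in MIA_PLX_LPS (SD, n = 6) and 331 ± 40.3 CPM in MIA_PLX_SAL (SD, n = 3). It averaged 525 ± 330 CPM in CON_CON_LPS and 327 ± 50.3 CPM in CON_CON_SAL (SD, n = 4 each). In MIA without PLX it averaged 367 ± 135 CPM in MIA_CON_LPS (SD, n = 6) and 299 ± 20.8 CPM in MIA_CON_SAL (SD, n = 4). In each of these arms 1 LPS library lay below the rest of its group, at 297 CPM in MIA_PLX_LPS, 147 CPM in CON_CON_LPS and 112 CPM in MIA_CON_LPS, and all the others were above every saline library of the arm. The log2 fold changes of Stab1 were 0.91, 0.78 and 0.52 in the same order, with adjusted p of 0.0607, 0.0972 and 0.231 by edgeR. In MIA with PLX, Stab1 was called by DESeq2 (0.88, adjusted p 0.0432), by voom (1.01, 0.000133) and by edgeR on the compared groups alone (0.89, 0.00562). There it was also called by edgeR without MIA_PLX_LPS replicate 5 (1.01, adjusted p 0.0410), MIA_CON_LPS replicate 1 (0.91, 0.0262), CON_CON_LPS replicate 1 (0.91, 0.0201) or CON_PLX_LPS replicate 1 (0.91, 0.0412). In CON without PLX it was called by voom (0.80, adjusted p 0.0196), and by edgeR without CON_CON_LPS replicate 1 (1.09, 0.00894) or MIA_CON_LPS replicate 1 (0.78, 0.0481).

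Mrc1 had lower means after LPS in all 4 arms, by factors of 0.764 in CON with PLX, 0.634 in CON without PLX, 0.712 in MIA with PLX and 0.635 in MIA without PLX, and was not called in any (log2 fold changes -0.36 to -0.13, and 0.069 in CON with PLX without CON_PLX_LPS replicate 4). Without CON_CON_LPS replicate 2, the log2 fold change in CON without PLX was -1.88 with an adjusted p of 0.0415 by edgeR, so that this library alone decides the call. The other 3 CON_CON_LPS libraries, at 7.10 to 11.5 CPM, were all below the CON_CON_SAL libraries at 28.2 to 55.0 CPM. With both marked libraries included it was 0.12, and the marked CON_CON_LPS replicate 3 itself stood at 64.3 CPM.

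Cd163, Lyve1 and Cbr2 had fitted log2 fold changes above 0 after LPS in all 4 arms, between 0.24 and 2.14, none of them called. Leaving out single libraries turned several of them. Without CON_CON_LPS replicate 2 they were -1.54 for Cd163, -1.57 for Lyve1 and -0.53 for Cbr2 in CON without PLX, and Lyve1 was at -0.45 in MIA without PLX when MIA_CON_LPS replicate 2 was left out. Pf4 ran between -1.62 and 0.84 over the arms. It was lowest in MIA with PLX, where it was -3.51 with an adjusted p of 0.0257 by edgeR, and so called, without MIA_PLX_LPS replicate 5.

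**Figure D4:**
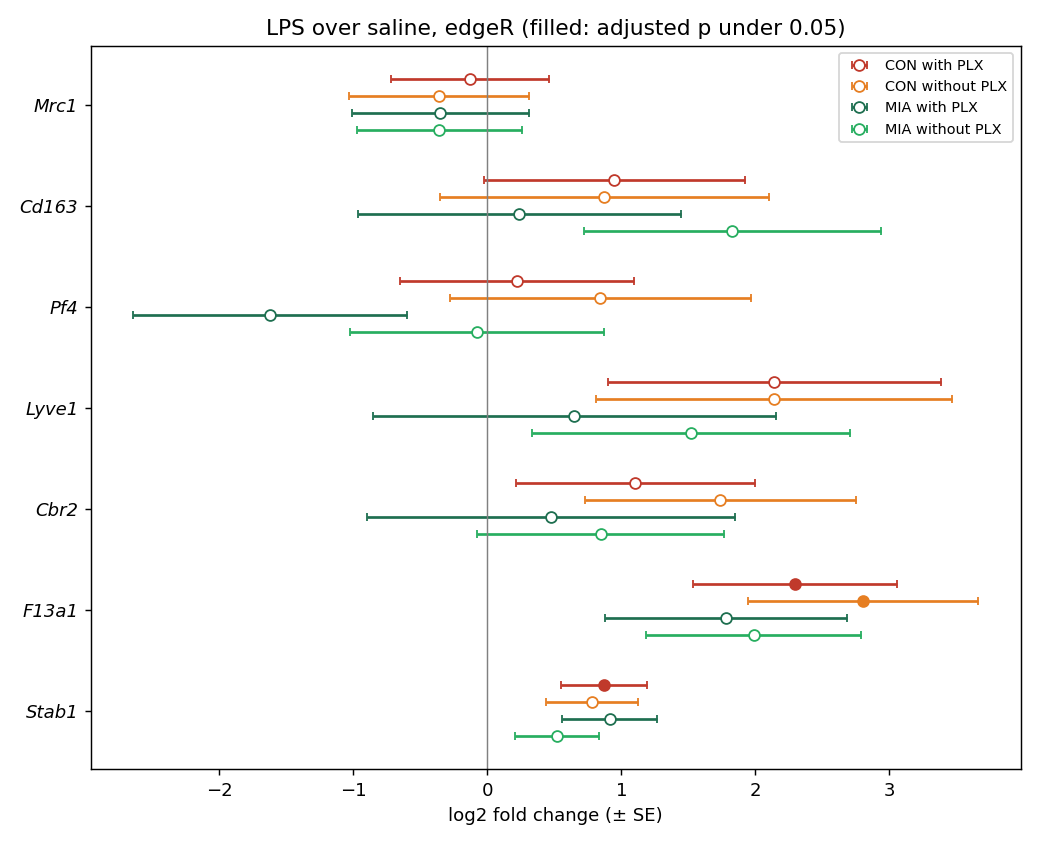
Log2 fold change of LPS over saline (horizontal axis) for the 7 genes with enough counts, with bars of 1 SE and a colour per arm. Filled points had an adjusted p under 0.05 by edgeR: F13a1 in CON with PLX (2.30) and without PLX (2.80), and Stab1 in CON with PLX (0.87). Mrc1 lies left of 0 in all 4 arms, with both marked libraries left out.

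In the other arms 0 of the 7 genes separated in either direction after LPS, against 9.42% upward and 19.7% downward in CON with PLX, 8.9% and 15.2% in MIA with PLX, and 6.06% and 12.3% in MIA without PLX.

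Averaged over arm and injection, MIA against CON moved none of the 7 genes past the threshold, and none of all 13420 genes (0%), by edgeR with Benjamini-Hochberg adjustment. At an unadjusted p under 0.05 by edgeR 0 of the 7 and 944 of all genes passed, and DESeq2 and voom called 0 genes in all. The log2 fold change was -0.29 ± 0.32 for Mrc1, -0.12 ± 0.16 for Stab1 and -0.32 ± 0.41 for F13a1 (SE).

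Between libraries of the same group several of the 9 genes rose and fell together. Over 37 libraries, with log2 CPM taken after subtracting group means, Pearson's r was 0.868 for Cd163 with F13a1, 0.863 for Lyve1 with F13a1, 0.822 for Cd163 with Lyve1 and 0.809 for Mrc1 with Lyve1. Spearman's rho for the same pairs was 0.794, 0.780, 0.716 and 0.701. Leaving out the 4 libraries with over 30 CPM of the low genes gave r of 0.774, 0.798, 0.700 and 0.548 over 33 libraries. Stab1 had r of 0.212 to 0.555 with the other 6 genes. All genes of a library share its depth and scaling, and r is a description of these libraries.

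The genes most like each in this measure differed between Stab1 and the rest. For Stab1 they were Vsir (r 0.927), Sult1a1 (0.926) and Slco2b1 (0.926). For F13a1 they were Ncor1 (0.868), Cd163 (0.868) and Lyve1 (0.863), for Cd163 F13a1 (0.868), Lyve1 (0.822) and Tmem109 (0.790), and for Lyve1 F13a1 (0.863), Cd163 (0.822) and Man2b2 (0.819). For Mrc1 they were Lyve1 (0.809), Trf (0.766) and Exoc4 (0.764), for Cbr2 Fam114a2 (0.837), Nudt9 (0.833) and Snx2 (0.811), and for Pf4 Tnfsf8 (0.704), Pcnp (0.684) and Dse (0.656).

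**Figure D5:**
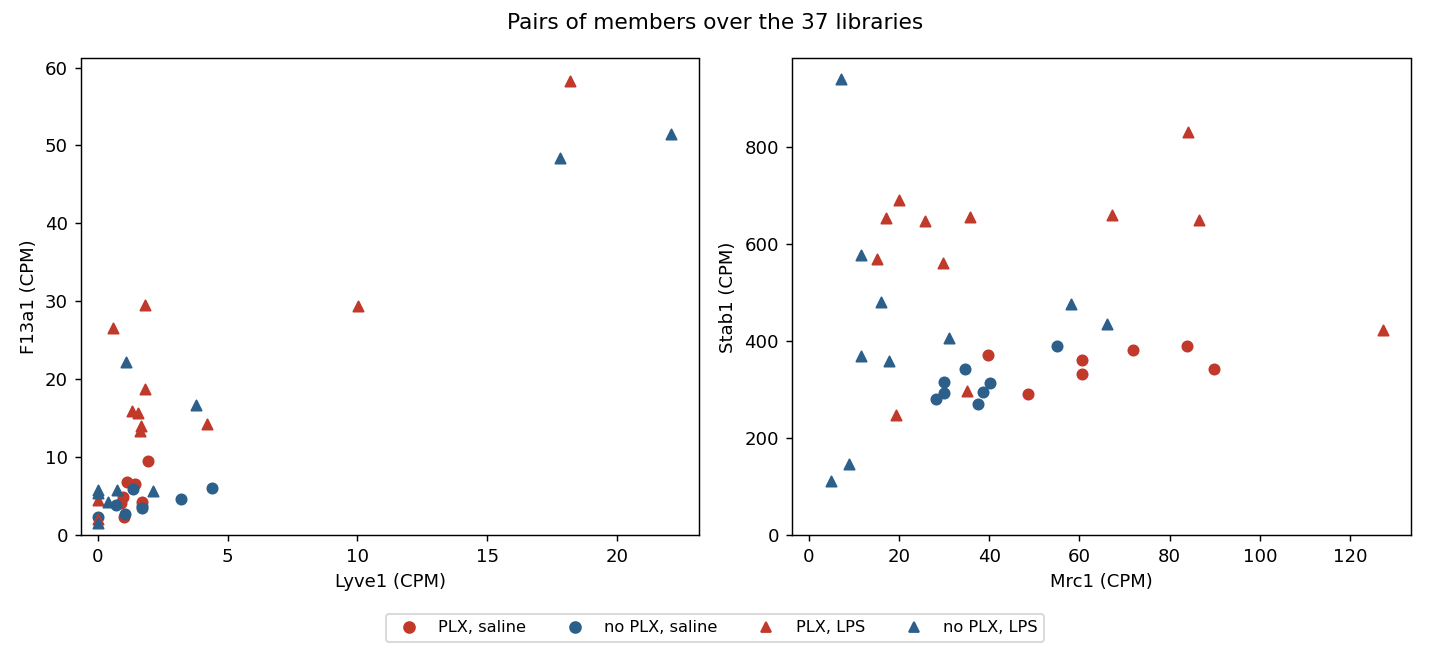
F13a1 against Lyve1 (left) and Stab1 against Mrc1 (right), both axes in CPM, with a point per library for 37 libraries. Red marks PLX and blue no PLX, circles saline and triangles LPS. The 3 libraries highest in Lyve1 (17.8 to 22.1 CPM) are also the 3 highest in F13a1 (48.4 to 58.3 CPM), while high Stab1 occurs at low and at high Mrc1.

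Other markers of the same cell types behaved as follows. Of 11 further border macrophage markers 3 passed the filter, Dab2, Siglec1 and Maf. Dab2, an endocytic adaptor, averaged 351 ± 157 CPM in CON_PLX_LPS (SD, n = 6) and 40.1 ± 5.61 CPM in CON_PLX_SAL (SD, n = 4), and 257 ± 78.0 CPM in CON_CON_LPS and 32.5 ± 2.92 CPM in CON_CON_SAL (SD, n = 4 each). Siglec1, the sialic acid receptor CD169, averaged 67.9 ± 38.3 CPM in CON_CON_LPS and 1.70 ± 1.34 CPM in CON_CON_SAL (SD, n = 4 each). Both rose after LPS in all 4 arms, by 2.40 to 3.38 for Dab2 and 4.62 to 5.43 for Siglec1 on the log2 scale, with adjusted p of at most 7.30e-06 by edgeR. Maf, a transcription factor gene of macrophages, was called lower in MIA without PLX (-0.94, adjusted p 0.0200 by edgeR). Folr2, a folate receptor used to mark border macrophages, averaged under 1 CPM in every group, with 0.864 CPM in CON_PLX_LPS as the highest mean.

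Of 6 further markers of engrafted macrophages all 6 were tested. With LPS 3 were called higher in CON with PLX, 2 in CON without PLX, 3 in MIA with PLX and 3 in MIA without PLX. The 1 called lower in each arm with PLX was Ccr2, the chemokine receptor of inflammatory monocytes. Over all tested genes the shares called in either direction were 31.5%, 23.6%, 22.3% and 25.4% in the same order of arms. Apobec3, an antiviral deaminase gene, and Cd38, an ectoenzyme gene, rose in all 4 arms (1.04 to 1.35 and 3.13 to 4.72 on the log2 scale). Apoe, the apolipoprotein gene, had the smallest p of the list for PLX. It averaged 199 ± 13.8 CPM in CON_PLX_SAL and 112 ± 8.84 CPM in CON_CON_SAL (SD, n = 4 each), and its average PLX log2 fold change was 0.77 ± 0.19 (SE), with an adjusted p of 0.355 by edgeR. Of the genes on the 12 other lists, 0 were called for PLX in the 4 settings or on average.

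The lists of other cell types are given as the number called after LPS in CON with PLX, CON without PLX, MIA with PLX and MIA without PLX. Over all tested genes 31.5%, 23.6%, 22.3% and 25.4% were called in either direction in those arms. A count near that share is not a result about its list. Of 9 monocyte markers 7 were tested, of which 4, 4, 6 and 6 were called higher and 1, 0, 1 and 0 lower. Of 6 neutrophil markers 5 were tested, and 1, 3, 2 and 5 were called higher. Of 5 platelet markers 2 were tested, and 1, 1, 1 and 0 were called lower. Of 7 endothelial and mural markers 5 were tested, and 2, 1, 1 and 0 were called lower. Of 5 MHC class II genes 4 were tested, and 2, 1, 1 and 1 were called higher, and this list summed to 58.3 to 123 CPM in the 4 libraries above and 39.9 to 123 CPM over all LPS libraries. Of 4 astrocyte markers 3 were tested, with 1 called higher and 1 lower in MIA without PLX and 0 elsewhere. Of 5 neuronal and 5 oligodendrocyte markers 3 each were tested and 0 called, and 0 of 6 lymphocyte markers passed the filter.

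Microglia identity genes, given for comparison, fell after LPS for 9 of 11 in CON with PLX, 9 in CON without PLX, 11 in MIA with PLX and 8 in MIA without PLX, and 0 rose. Siglech, a microglial lectin gene, fell by 2.16, 1.96, 2.03 and 1.48 on the log2 scale in those arms. The median log2 fold change after LPS over the 7 tested genes of the border and engrafted set was 0.94, 0.87, 0.47 and 0.84 in the same order, beside 0.03, 0.06, 0.04 and 0.03 over all genes tested. The 0.87 of CON without PLX depended on CON_CON_LPS replicate 2. Without that library Mrc1 (-1.88), Lyve1 (-1.57), Cd163 (-1.54), Pf4 (-0.69) and Cbr2 (-0.53) were below 0 in this arm. F13a1 (1.84) and Stab1 (0.78) stayed above 0. For PLX over no PLX the median over the 7 genes was 0.80 in prenatal controls at saline, 0.30 in prenatal controls after LPS, 0.15 after MIA at saline and -0.80 after MIA and LPS, beside 0.00, -0.01, -0.01 and -0.02 over all genes. Both medians after LPS depended on single libraries. After MIA and LPS, without MIA_CON_LPS replicate 2, F13a1 (0.97), Cd163 (0.62), Lyve1 (0.32) and Pf4 (0.15) turned above 0. Cbr2 stayed below 0 there whichever library was left out (-2.37 to -1.38). In prenatal controls after LPS, without CON_CON_LPS replicate 2, Lyve1 was at 3.67, Mrc1 at 2.80, Cbr2 at 2.24, F13a1 at 1.25 and Stab1 at 0.26. In prenatal controls at saline the median for PLX was 1.66 over the 7 tested monocyte markers and 4.85 over the 5 tested neutrophil markers. The neutrophil markers summed to 0, 74.1, 0 and 3.62 CPM in CON_PLX_SAL and to 0, 1.05, 0 and 0 CPM in CON_CON_SAL, so 4.85 rested mainly on CON_PLX_SAL replicate 2. For the average over the 4 settings the median was 0.29 over the 7 genes, 1.17 over the monocyte markers and 1.25 over the neutrophil markers, and the part of those cell types in the PLX values was not tested.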

How the data were processed

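RNA sequencing counts of sorted striatal microglia were read from the deposited table, which holds expected counts per gene for 39 libraries. Per the submitters' processing notes the tools were STAR, RSEM and DESeq2, without versions or roles. No source used here names the genome build or the annotation behind them. Of the nonzero deposited values, 14.7% were not whole, so the deposited expected counts were rounded before fitting. Per the labels' protocols the complementary DNA came from linear amplification without strand information and without removal of ribosomal RNA.

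CPM were computed from the deposited counts and the plain column totals. Of 55487 identifiers, 55141 matched a symbol in GENCODE M21, and those without one held 0.0132% of counts. Genes were kept by filterByExpr (minimum count 10, minimum total 15), which left 13420. A mean per group was fitted to 37 libraries with edgeR 4.0.16 in R 4.3.3 (quasi-likelihood, TMM scaling, robust dispersion), without a block. Tests were two-sided, p-values had the Benjamini-Hochberg adjustment across every tested gene of a contrast, and genes were called at an adjusted p under 0.05. A standard error (SE) is the size of the log2 fold change over the root of its F value. The method was tested on simulated data. Intervals and floors cover counting error only, and the floor was 3 counts.

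Alternatives were RLE scaling, library totals alone, no filter, DESeq2 1.42.0, limma 3.58.1 voom with quality weights, both marked libraries included, a replicate block, only the compared groups, and leaving out each library. Leaving out the 4 libraries that held over 30 CPM of the 6 low genes was chosen after seeing the data. Replicate numbers were not taken to pair the libraries: the labels do not say that a number marks anything shared, and same-numbered pairs had deviations correlated over 0.1 in 19 of 107 cases (median r 0.0177).

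The 9 genes and the 12 other marker lists were chosen with earlier results of these data known. All 9 genes are named. From each other list, genes were named by the smallest p in the average PLX contrast or in an LPS contrast. For each gene tested, the genes whose log2 CPM (prior count 2, group means subtracted) correlated most with it are given. Promoter windows came from RefSeq (GRCm38.p6) and gene positions from GENCODE M21.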

Additional observations from a re-analysis of the deposited data

Results flagged for a closer look

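Within groups of 4 to 6 libraries, a single library stood clearly apart for 18 of 63 combinations of gene and group, judged by its gap to the next library over the range of the group. The rule finds about 1 in 20 by chance only for independent values with a normal spread. Low counts with many zeros, in genes that vary together, are not such values, so the 18 cannot be compared with that rate. CON_CON_LPS replicate 2 was far above the other 3 libraries of its group for Mrc1 (66.2 CPM), Cd163 (6.41), Lyve1 (17.8), Cbr2 (8.27), Ms4a7 (2.28) and Clec12a (1.45). MIA_CON_LPS replicate 2 was far above the other 5 libraries of its group for Cd163 (17.8 CPM), Pf4 (4.24), Lyve1 (22.1), Ms4a7 (4.91), Clec12a (1.34) and F13a1 (51.5). In MIA_PLX_LPS, replicate 4 stood above the rest for Mrc1 (86.5 CPM), replicate 5 above for Pf4 (4.12 CPM) and below for Stab1 (297 CPM), and replicate 2 below for F13a1 (2.07 CPM). CON_PLX_LPS replicate 2 stood above its group for Clec12a (1.34 CPM), and MIA_CON_LPS replicate 1 below its group for Stab1 (112 CPM).

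The 2 libraries whose titles say exclude held several of the genes above the highest CON_CON_SAL library. CON_CON_LPS replicate 3 had Mrc1 at 64.3 CPM, Cd163 at 3.33, Pf4 at 2.31, Lyve1 at 11.02, Cbr2 at 1.79, Ms4a7 at 2.82 and F13a1 at 13.8 CPM. MIA_PLX_SAL replicate 1 had F13a1 at 6.999 CPM and Stab1 at 418 CPM. The cause of these values was not tested.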

How the results depend on the processing

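Of 2854 fold changes of the 7 genes recomputed under alternatives, 2743 kept direction and side of the threshold, 74 reversed (47 for PLX, 27 for LPS), 20 became called and 17 lost a call. Most of the 2854 come from leaving out single libraries. Leaving out a library outside the compared groups hardly moves a fold change, so the number kept does not measure robustness. The cause was not tested for any of the changes, and depth limits the low genes, most of whose libraries hold few or 0 counts.

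The number of all genes called for PLX was 0 in CON at saline, 1 in CON after LPS, 0 in MIA at saline, 0 in MIA after LPS and 7 on average. In MIA after LPS it was 7 with library totals alone, 3 with no filter, 25 with DESeq2, 4 with the replicate block and 22 without the 4 libraries over 30 CPM of low genes. In CON after LPS it was 0 with no filter, voom, only the compared groups or without the 4 libraries, and 2 with the block. At saline DESeq2 and voom gave 1 in CON and 1 in MIA, and only the compared groups gave 10 and 2. DESeq2 gave 11 on average. After LPS, voom called 6432 genes in CON with PLX (4228 by edgeR) and 4596 in MIA with PLX (2990), and only the compared groups gave 2228 in MIA without PLX (3403).

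Of the 7 genes, those called after LPS in CON with PLX were 2, but 1 with library totals alone, the block or without the 4 libraries, and 0 with no filter. In MIA without PLX DESeq2 called 1. In MIA with PLX DESeq2, voom and the block called 1 and only the compared groups 2. In CON without PLX voom, and the fit without the 4 libraries, called 2. Without the 4 libraries 1 was called for PLX on average, which supports nothing, since they were picked by genes that vary with it.

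Reversed log2 fold changes for PLX in CON after LPS were Lyve1 0.073 (library totals alone), 0.032 (DESeq2), 0.25 (voom), 0.14 (block) and 1.41 (without the 4), and Cbr2 0.025 (DESeq2), 0.053 (both marked libraries included) and 0.16 (block). In CON at saline Lyve1 was 0.51 with voom. In MIA at saline F13a1 was 0.16 with the marked libraries, and Cd163 was -0.093 and Stab1 -0.019 with the block. In MIA after LPS F13a1 was 0.29 with voom, 0.33 with the block and 0.97 without the 4, where Cd163 was 0.62, Pf4 0.14 and Lyve1 0.33. On average Lyve1 was 0.24 without the 4. For LPS, Pf4 in CON with PLX was -0.0024 with library totals alone, Pf4 in MIA without PLX 0.47 and Cd163 in MIA with PLX -0.036 with voom, and Mrc1 in CON without PLX 0.12 and Cbr2 in MIA with PLX -0.18 with the marked libraries. Without the 4, in CON without PLX Cd163 was -1.54, Pf4 -0.69 and Lyve1 -1.57, in CON with PLX Pf4 was -0.34 and Lyve1 -0.13, and in MIA without PLX Lyve1 was -0.45. Cbr2 had no value without the 4, since it failed the filter.

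Leaving out single libraries gave 0 to 1 genes called for PLX in CON after LPS, 0 to 16 in MIA after LPS and 4 to 8 on average. Of the 7 genes it gave 0 to 2 called after LPS in CON without PLX, 0 to 2 in CON with PLX, 0 to 1 in MIA without PLX and 0 to 2 in MIA with PLX. PLX log2 fold changes ran in CON at saline over -0.016 to 1.05 (Cbr2) and -0.48 to 0.69 (Lyve1), and in CON after LPS over -0.89 to 2.24 (Cbr2), -0.75 to 3.67 (Lyve1), -0.050 to 1.25 (F13a1) and -0.045 to 0.47 (Stab1). In MIA at saline they ran over -0.19 to 1.01 (Cd163), -0.56 to 1.36 (Pf4) and -0.43 to 0.26 (F13a1), in MIA after LPS over -1.45 to 0.62 (Cd163), -2.68 to 0.15 (Pf4), -2.17 to 0.32 (Lyve1) and -0.47 to 0.97 (F13a1), and on average over -0.80 to 0.31 (Lyve1). LPS log2 fold changes ran in CON without PLX over -1.54 to 1.45 (Cd163), -0.53 to 2.17 (Cbr2), -0.69 to 1.24 (Pf4) and -1.57 to 2.87 (Lyve1), and in CON with PLX over -0.60 to 0.069 (Mrc1) and -0.017 to 0.55 (Pf4). In MIA without PLX they ran over -1.03 to 0.54 (Pf4) and -0.45 to 2.23 (Lyve1), and in MIA with PLX over -0.27 to 1.05 (Cd163), -0.035 to 0.85 (Cbr2) and -3.51 to -0.32 (Pf4).

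The labels do not say that replicate numbers mark anything shared. As a hint from the data and not the design, 15 of 37 libraries correlated best with their own number. With the block the log2 fold change of Stab1 after LPS was 0.74 in CON with PLX (adjusted p 0.0646 by edgeR) and 1.05 in MIA with PLX (0.0264). Library totals alone shifted the median of all genes after LPS to -0.21 in CON with PLX, -0.17 in MIA without PLX and -0.10 in MIA with PLX, and genes called higher against lower were then 1556 and 2660 in CON with PLX (2354 and 1874 with TMM), 1393 and 1445 in CON without PLX (1841 and 1321), 1114 and 1603 in MIA with PLX (1589 and 1401), and 1219 and 2122 in MIA without PLX (1941 and 1462).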
